A study of Mus musculus with 48 samples.

Results

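Mouse genes whose symbols end in "-ps", with or without a number, are named as pseudogenes of the gene whose symbol they carry. The genes described here were chosen by their counts and their names: they do not belong to the ribosomal protein families Rpl and Rps and they had at least 1 count in at least 12 of the 16 libraries of the young and old series. Of 1256 genes with such names, 174 met this rule, among 55335 genes in the table and 15636 genes that met the same detection rule. At the edge of the rule, the 7 members counted in exactly 12 libraries had 16 to 53 counts in total over the series, and the 8 genes counted in 11 libraries, which were left out, had 17 to 53. Because the rule used the counts of the young and old libraries, the ratio of enrichment to input in those libraries is given as a description, and the tests of this ratio come from the spike-in and NudC libraries. The comparisons between the ages use the libraries of the rule, so a member counted mainly at one age met the rule through that age.

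All libraries were made from livers of C57BL/6 mice by ONE-seq, in which NAD-capped RNA is linked to biotin in a single enzymatic step, bound to streptavidin, and released by NudC, a bacterial nudix hydrolase that cuts the NAD-derived cap. Each enrichment library has an input library made from the same reaction before capture. The spike-in series used livers of 18-month mice, to whose RNA a synthetic RNA with 0%, 1%, 5% or 10% of its molecules NAD-capped had been added, with 3 input and 3 enrichment libraries for each mixture. The NudC series used livers of 12-month mice, with (NudC+) or without (NudC-) the enzyme at elution, and 2 input and 2 enrichment libraries each. The young and old series used livers of 2-month and 18-month mice, with 4 input and 4 enrichment libraries at each age.

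A processed pseudogene arises when an mRNA is copied back into DNA and inserted elsewhere in the genome without its introns, whereas an unprocessed pseudogene is a duplicated gene that keeps its exon structure but has lost its function. A copy is transcribed only if it lies near a promoter or within another transcript, and a recent copy differs from its parent at few bases, so that a short read from the parent can match both. Of the 174 members, 121 were annotated as processed pseudogenes, 44 as unprocessed and 2 as unitary, meaning that no working copy remains in the species. Another 5 were annotated as protein-coding and 2 as non-coding RNA. The median exon length was 692.5 bases, compared with 3835.5 bases over all genes tested in the young and old series, and 124 members had a single exon. A total of 116 carried the symbol of an annotated gene, which is called the parent here, and these had 101 different parents. The best sequence match among protein-coding transcripts was the parent by name for 110 of the 116. Among the other 6, Bhmt-ps1 matched its parent and another gene equally, at 98.9% over 1224 bases. Identity to the parent had a median of 98.6%, and 11 members were identical to it over the aligned bases. Pairs of reads were counted by gene in featureCounts with the options -p, -B and -C, and the study speaks of uniquely mapped read pairs. It names no option for reads that match several places, so the division of reads between a member and its parent is uncertain for every pair below. No strand setting is stated, so reads from overlapping genes on opposite strands cannot be told apart.

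Short stretches of 5 members are shown with the coding sequence of the parent, to show how alike the sequences compared below are. The first 4 are the members with the largest positive difference from the parent in the spike-in series among those with a single exon, and the last, Got2-ps1, with the largest negative difference, was added after its values were seen. Each stretch is the 120 bases with the most mismatches in an alignment without gaps, 5′ to 3′, on GRCm38, and capitals in the line of the coding gene mark bases that differ from the member. Gstm2-ps1 (chr5:116633438-116633557, minus strand) is shown with bases 8 to 127 of the coding sequence of both Gstm2, which gave it its name, and Gstm1, its best match, both glutathione S-transferases. The sequences are from GENCODE transcripts.
Gstm2-ps1: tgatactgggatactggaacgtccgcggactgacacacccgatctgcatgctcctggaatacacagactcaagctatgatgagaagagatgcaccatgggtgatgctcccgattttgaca
Gstm2: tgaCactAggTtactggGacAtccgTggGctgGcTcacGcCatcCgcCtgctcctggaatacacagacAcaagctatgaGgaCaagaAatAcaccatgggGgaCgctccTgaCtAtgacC
Gstm1: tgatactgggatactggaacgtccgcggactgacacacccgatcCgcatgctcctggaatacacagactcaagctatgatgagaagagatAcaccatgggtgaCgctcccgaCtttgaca
Gstm2-ps1 differed from Gstm2 at 24 of these 120 bases and from Gstm1 at 4. Bnip3l-ps (chr12:18216748-18216867, plus strand), named after a mitophagy receptor, differed from bases 151 to 270 of the Bnip3l coding sequence at 3.
Bnip3l-ps: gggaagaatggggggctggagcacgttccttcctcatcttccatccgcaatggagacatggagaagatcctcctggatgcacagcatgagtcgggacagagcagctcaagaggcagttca
Bnip3l: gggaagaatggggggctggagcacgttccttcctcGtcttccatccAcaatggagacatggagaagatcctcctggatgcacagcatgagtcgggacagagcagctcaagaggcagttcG
Nudc-ps1 (chr8:29286862-29286981, minus strand) is named after mouse Nudc, a nuclear distribution protein unrelated to the bacterial enzyme used in the assay, and differed from bases 442 to 561 at 1.
Nudc-ps1: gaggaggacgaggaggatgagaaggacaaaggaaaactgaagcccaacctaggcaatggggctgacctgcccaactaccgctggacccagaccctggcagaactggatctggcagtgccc
Nudc: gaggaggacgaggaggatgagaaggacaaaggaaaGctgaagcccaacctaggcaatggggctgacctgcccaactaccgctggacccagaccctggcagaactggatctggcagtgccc
Tpt1-ps3 (chr6:99878215-99878334, minus strand), a copy of the translationally controlled tumour protein gene, was identical to bases 1 to 120 of Tpt1.
Tpt1-ps3: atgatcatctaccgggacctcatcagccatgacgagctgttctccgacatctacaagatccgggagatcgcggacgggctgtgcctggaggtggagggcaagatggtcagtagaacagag
Tpt1: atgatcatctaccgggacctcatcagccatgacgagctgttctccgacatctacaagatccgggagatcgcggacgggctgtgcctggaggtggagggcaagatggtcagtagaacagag
Got2-ps1 (chr5:138364977-138365096, minus strand), a copy of mitochondrial aspartate aminotransferase, differed from bases 457 to 576 of Got2 at 4.
Got2-ps1: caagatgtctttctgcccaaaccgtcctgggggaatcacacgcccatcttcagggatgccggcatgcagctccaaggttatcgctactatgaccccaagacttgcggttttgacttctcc
Got2: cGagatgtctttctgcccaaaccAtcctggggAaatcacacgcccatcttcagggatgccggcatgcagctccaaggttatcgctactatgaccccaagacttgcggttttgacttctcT

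Total counts ranged from 3694383 to 10277863 in the 24 spike-in libraries, from 7242321 to 8725646 in the 8 NudC libraries and from 9149931 to 14953661 in the 16 young and old libraries. Of the hepatocyte markers searched, 5 of 6 were found by symbol, and their summed level was 61258 to 118142 CPM (counts divided by the scaled library total) in the input libraries of the young and old series. The markers of Kupffer cells and leukocytes summed to 108 to 182 CPM, those of endothelial cells to 60.8 to 77.2 CPM and those of stellate cells to 115 to 160 CPM in the same libraries. The tissue label therefore has its defining markers. Nothing in the sources used here ties the libraries of a group to separate animals beyond the study calling them biological replicates, and p-values measure the spread between these libraries. For the spike-in series the study names 3 biological replicates, so the same livers may recur across the mixtures. Its 12 library pairs may therefore not be 12 livers, and the fit treated its libraries as independent.

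The first question was whether these transcripts were higher in the enrichment than in the input libraries. In the spike-in series, 152 members could be tested, 39 were at least 2-fold higher in enrichment and 8 at least 2-fold lower, with an adjusted p under 0.05 in edgeR's quasi-likelihood test over all genes. That is 25.7% higher and 5.26% lower, compared with 11.4% and 13.4% of all 14850 genes tested. The median log2 fold change was 0.52 for the members and -0.05 for all genes. Their parents by name stood close by, with 25 of 99 higher, 3 lower and a median of 0.44. Of 99 parents tested in the NudC series, 33 were higher and 5 lower in NudC-, with a median of 0.48, and 28 were higher and 9 lower in NudC+, with a median of 0.54. In the NudC series, 39 of 159 members (24.5%) were higher and 0 lower in NudC- enrichment, against a background of 9.35% higher and 5.66% lower. In NudC+ enrichment 32 of 159 (20.1%) were higher and 0 lower, against 7.68% and 6.0%. Beside the 0 lower, 63 and 58 members had an unadjusted p under 0.05 in either direction, and DESeq2 also called 0 lower in both. With the input and enrichment libraries of the same number paired, 57 were higher and 3 lower in NudC-, and 50 higher and 4 lower in NudC+. The counts over all 17325 genes rose with pairing too. In NudC- they went from 1620 higher and 980 lower to 2302 and 1835. In NudC+ they went from 1330 and 1040 to 2047 and 1851. Without NudC- replicate 1 or 2 the members higher in NudC- were 9 or 0, and without either NudC+ replicate 0 were higher in NudC+. Where NudC+ kept 1 library, no gene of the whole table passed, and the members' median log2 fold change was 1.10 or 0.89. Where NudC- kept 1 library, 327 or 0 genes of the whole table were at least 2-fold higher, and the members' median was 1.14 or 0.93. Members that passed the filter on low counts only through their enrichment libraries are among these counts.

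**Figure D1:**
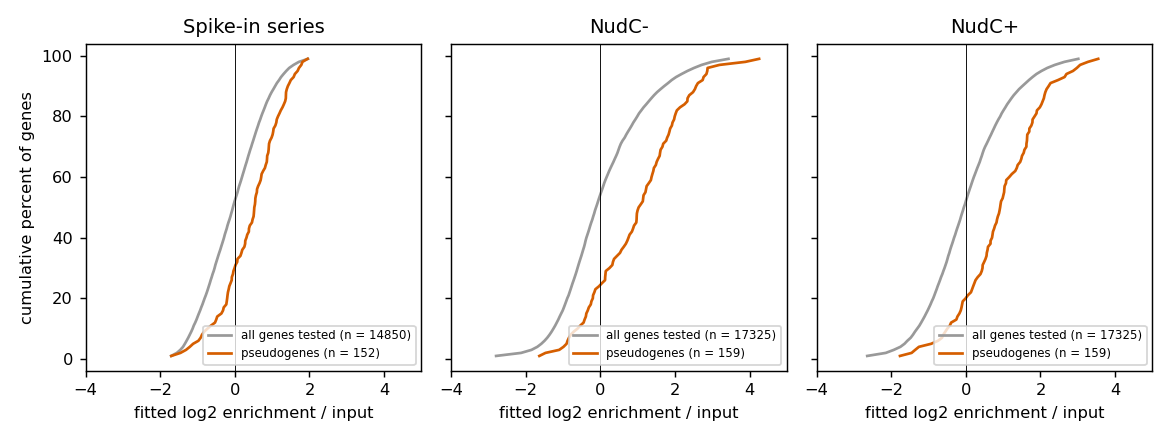
Cumulative percent of genes (vertical axis, 1st to 99th percentile) by fitted log2 fold change of enrichment over input (horizontal axis) in the spike-in series, NudC- and NudC+, for the pseudogenes tested and all genes tested. The curve of the pseudogenes lies to the right of that of all genes over most of its length, with medians of 0.52, 1.03 and 0.92 for the pseudogenes and -0.05, -0.11 and -0.05 for all genes.

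These log2 values are relative to a scaling that assumes most genes do not differ. With scaling by library size alone, the median of all genes in the spike-in series moved from -0.05 to -0.50 and that of the members from 0.52 to 0.07, and the members stayed 0.57 above all genes under both. With library size alone, the share higher among all genes that passed at any fold fell from 47.7% to 23.3%. Of the members that passed at any fold, 75 were higher and 21 lower in the main fit, and 40 and 41 with library size alone. The count of members at least 2-fold higher fell to 14 and the count lower rose to 18 under that scaling, for which the shares of all genes at 2-fold are not given. Exon length moved with the same measure. Over all 14849 genes with an annotated length, Spearman's rho between exon length and the spike-in log2 fold change was -0.54, and over the 152 members it was -0.29. Both are across genes, which share libraries and are not independent, and the part of length in the members' shift was not tested.

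By the role of the gene in the name, the members named after redox, detoxification and iron storage genes had the highest median in the spike-in series. Of 10 tested, 7 were higher, 0 were lower and 3 did not pass, with a median log2 fold change of 1.24. Of all genes, 11.4% were higher and 13.4% lower. The 11 members of this role include Ftl1-ps1, Ftl1-ps2 and Ftl2-ps, all named after ferritin light chain genes, so they are not independent. Gstm2-ps1, named after a glutathione S-transferase, was at 161 to 220 CPM in the 12 input libraries (median 192) and at 287 to 808 CPM in the 12 enrichment libraries (median 629). The levels of input and enrichment did not overlap, and the difference was 1.65 ± 0.12 (SE) on the log2 scale (edgeR, adjusted p = 3.8e-10). Gpx4-ps2, a copy of the glutathione peroxidase that reduces lipid peroxides, was higher by 1.38 ± 0.11 (edgeR, adjusted p = 1.2e-09). It is named outside the rule of size given below. Ftl1-ps1, a copy of the ferritin light chain, is annotated as protein-coding and was the member with the highest count in young and old input. Its exons overlap Mir692-3 on the same strand and Gm47428 on the other strand. It was at 919 to 1343 CPM in input (median 1101) and 1346 to 3450 CPM in enrichment (median 2622). Its levels also did not overlap, and it was higher by 1.21 ± 0.11 (edgeR, adjusted p = 3.5e-09). As mean log2 ratios of enrichment to input, Gpx4-ps2 was at 1.35 and Gpx4 at 1.31, and Ftl1-ps1 was at 1.18 and Ftl1 at 0.94. Gstm2-ps1 was at 1.61 and Gstm2 at 0.49. In this role 4 of 9 were higher in NudC+ and 6 of 9 in NudC-, against 7.68% and 9.35% of all genes. Its medians there were 1.57 and 1.60, not the highest of the roles. In NudC+ the oxidative phosphorylation role (2.05) and the mitochondrial ribosome role (1.67) were above it. In NudC- these were at 1.71 and 1.97, and the ubiquitin role was at 1.70.

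Of 19 members tested that are named after translation and ribosome assembly genes, 7 were higher and 0 lower in the spike-in series, with a median of 0.68. Oaz2-ps (chr3:135525964-135526532, minus strand), a copy of an ornithine decarboxylase antizyme that controls polyamine synthesis, had the largest value of all members with at least 20 counts per library, 1.98 ± 0.23 (edgeR, adjusted p = 1.6e-07). Its input was at 0.55 to 2.06 CPM and its enrichment at 1.52 to 9.15 CPM, so the ranges overlapped, but enrichment exceeded input in 12 of 12 library pairs. Of the 12 members named after oxidative phosphorylation and mitochondrial membrane proteins, 2 were higher and 0 lower, with a median of 0.76. Ndufab1-ps, a copy of the mitochondrial acyl carrier protein, was higher by 1.56 ± 0.16 (edgeR, adjusted p = 1.7e-08) and rose from 3.82 to 7.59 CPM in input to 9.51 to 26.2 CPM in enrichment. The mitochondrial ribosome, import and chaperone role held 3 higher and 0 lower of 9. The ubiquitin, proteasome and autophagy role held 3 higher and 0 lower of 6.

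Among members of the other roles, Rbm3-ps (chr1:150265535-150265999, minus strand), a copy of a cold-inducible RNA-binding protein gene, was at 8.07 to 13.3 CPM in input and 17.9 to 53.3 CPM in enrichment. The levels did not overlap, and the difference was 1.96 ± 0.13 (edgeR, adjusted p = 1.2e-10). Ybx1-ps2, a copy of the Y-box protein gene, was higher by 1.79 ± 0.16, and H3f3a-ps1, a copy of a histone H3.3 gene, by 1.77 ± 0.21. These shares stand beside 11.4% higher and 13.4% lower over all genes, and lists this small are described only. Transcription, RNA processing and DNA replication held 3 higher and 2 lower of 12, with a median of 0.14, and chromatin 3 higher and 1 lower of 9. The cytoskeleton, vesicle and signalling role had 2 higher and 1 lower of 25, with a median of 0.18, and its share higher was below that of all genes. The 33 tested members named after liver enzymes and secreted liver proteins held 6 higher and 2 lower. Adh6-ps1, annotated as an unprocessed pseudogene of an alcohol dehydrogenase, was higher by 1.72 ± 0.16 (edgeR, adjusted p = 4.0e-09). The remaining 17 tested members held 3 higher and 2 lower.

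Glud-ps (chr7:125075351-125076007, plus strand) was the only member called lower with at least 20 counts per library. Its best match is Glud1, the mitochondrial glutamate dehydrogenase, at 97.6% identity. Its input was at 26.8 to 41.9 CPM and its enrichment at 6.38 to 24.7 CPM. The levels did not overlap, and the difference was -1.62 ± 0.21 on the log2 scale (edgeR, adjusted p = 6.6e-07). Glud1 itself differed by -1.56 ± 0.22.

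**Figure D2:**
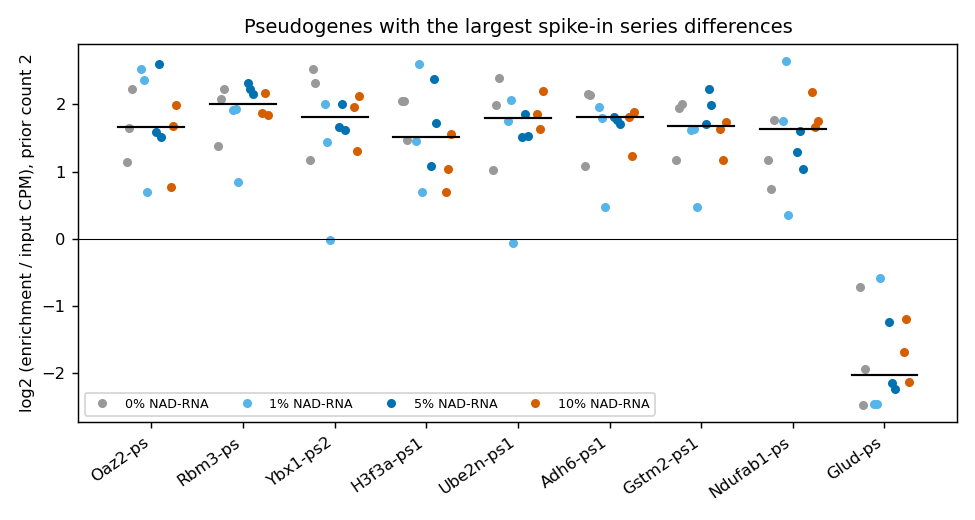
Log2 ratio of enrichment to input CPM (vertical axis, prior count 2) for the 9 pseudogenes with the largest called differences and a mean of at least 20 counts per library in the spike-in series. A point is shown for each of 12 library pairs, coloured by the NAD-capped share of the synthetic RNA, and a line at the median. Glud-ps lies below 0 in 12 of 12 pairs, and the medians of the other 8 lie between 1.52 and 2.01.

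In NudC+ enrichment the largest called value with more than 3 counts in each input library was that of Ndufb1-ps (chr12:101968090-101977068, minus strand), annotated as a bidirectional promoter RNA whose exons overlap Cpsf2 on the other strand. It had 51.3 and 41.6 CPM in NudC+ input and 655 and 535 CPM in NudC+ enrichment. In NudC- it had 46.6 and 38.3 CPM in input and 1003 and 1290 CPM in enrichment. The difference was 3.68 ± 0.29 in NudC+ (edgeR, adjusted p = 0.0011) and 4.76 ± 0.30 in NudC- (adjusted p = 3.2e-04), whereas in the spike-in series it was 0.90 ± 0.10. Cpsf2, a subunit of the mRNA cleavage complex, was at -1.09 in NudC+ on the same scale. Atp5k-ps2, a copy of an ATP synthase subunit gene, had 6 and 5 counts in NudC+ input and 27 and 39 in enrichment, and was higher by 2.98 ± 0.51 (edgeR, adjusted p = 0.0076). Ndufab1-ps was higher by 2.71 ± 0.35 (adjusted p = 0.0030 in edgeR). Obox4-ps1 and Selenok-ps5, whose exon overlaps Gm48228 on the other strand, were also called. They had 2 and 2 counts and 3 and 1 counts in NudC+ input, against 27 and 22 and 18 and 8 in enrichment. No fold is given where the median count of the lower group is 3 or fewer. With NudC+ replicate 1 or 2 left out no gene passed, these included, while Ndufb1-ps stayed at 3.68 or 3.74, Atp5k-ps2 at 3.53 or 2.48 and Ndufab1-ps at 3.43 or 2.21.

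Whether the enzyme changed the enrichment was tested as the difference between NudC+ and NudC-. For 0 of 159 members, and 0 of 17325 genes (0.0%), did this difference pass in edgeR or in DESeq2. The standard error of the difference had a median of 0.873 on the log2 scale over the members, with 2 libraries a group, so a count of 0 says little about its size. At an unadjusted p under 0.05 there was 1 member and 279 genes in edgeR, and 1 member and 128 genes in DESeq2. With pairing by replicate number, 6 genes of 17325 were higher and 65 lower in NudC+. Of the members, Ndufb1-ps was lower in NudC+ by 1.07 on the log2 scale (edgeR, adjusted p = 8.2e-05) and Tmem250-ps higher by 0.84 (adjusted p = 0.019), and both are chosen here because they passed. The exons of Tmem250-ps overlap 1810012K08Rik on the other strand.

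The next comparison set each member beside its parent. A member and its parent were both at a mean of at least 20 counts per library in 57 pairs of the spike-in series, 59 of the NudC series and 66 of the young and old series. Each value is the log2 ratio of enrichment to input of the member minus that of the parent in the same pair of libraries, so that the scaling of the library largely cancels. It is given with no test, since a read from the member may have been counted for the parent, or the reverse. Across the pairs, members with a high ratio had parents with a high ratio. Pearson's r across genes was 0.89 in the spike-in series, 0.86 in the NudC series and 0.91 in the young and old series. Member and parent share libraries, and reads of each may have been counted for the other. The median difference was -0.05 in the spike-in series and -0.07 in the young and old series, and 51 of 57 and 61 of 66 pairs lay within 0.5. In the NudC series the median was 0.37, 47 of 59 members exceeded their parents, and the median was above 0 in each of its 4 library pairs, from 0.26 to 0.64.

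**Figure D3:**
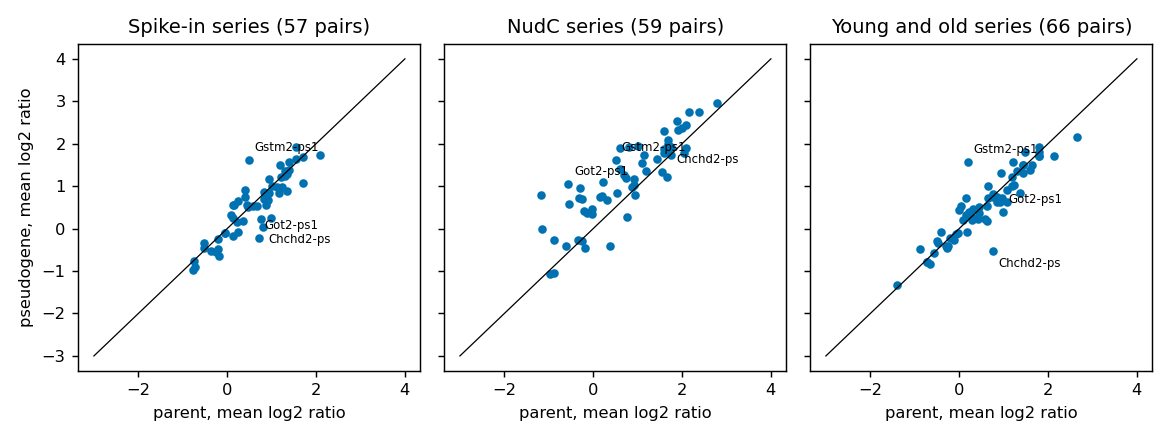
Mean log2 ratio of enrichment to input of each pseudogene (vertical axis) against that of its parent by name (horizontal axis) in the 3 series, with the line of equal values and 3 pairs labelled. Points lie along the line in the spike-in and young and old series, whereas 47 of 59 lie above it in the NudC series.

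Gstm2-ps1 stood farthest above its parent by name in the spike-in and the young and old series, whereas 7 members had a larger difference in the NudC series. Its ratio exceeded that of Gstm2 by 1.12 ± 0.36 (SD, n = 12) in the spike-in series, by 1.11 ± 0.05 (SD, n = 4) in the NudC series and by 1.37 ± 0.19 (SD, n = 8) in the young and old series, and in every library pair of the 3 series. Set beside Gstm1, the gene it matches best at 97.9% identity compared with 85.6% for Gstm2, the difference was 0.14 ± 0.07 in the spike-in series, 0.31 ± 0.13 in the NudC series and 0.19 ± 0.04 in the young and old series. The stretches printed above show the same order of similarity.

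Tpt1-ps3 was above Tpt1 by 0.41 ± 0.18 in 12 of 12 spike-in pairs and by 0.46 ± 0.11 in 8 of 8 young and old pairs, and below it by 0.21 ± 0.22 in the NudC series, in 0 of 4 pairs above. Although the aligned sequences are identical, Tpt1-ps3 took 86.0% of the counts of the pair in the spike-in series. The counting options that the study gives include none for reads that match several places, so this is a share of the counted reads only. Nudc-ps1 was above Nudc by 0.41 ± 0.23 in 12 of 12 spike-in pairs, above it by 0.15 ± 0.33 in the young and old series, and below it in 4 of 4 NudC pairs, at -0.49 ± 0.21. Bnip3l-ps was at 0.49 ± 0.40, Atp5c1-ps, a copy of the ATP synthase gamma subunit, at 0.41 ± 0.40, and Trmt112-ps2, a copy of a methyltransferase activator, at 0.36 ± 0.48 in the spike-in series. In the NudC series Bnip3l-ps was at 1.27 ± 0.25 and Atp5c1-ps at -0.78 ± 0.16.

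At the other end was Got2-ps1, whose exon overlaps Gm10874 on the other strand. It was below Got2 by 0.94 ± 0.58 in the spike-in series, in 12 of 12 pairs. It was at -0.60 ± 0.22 in the young and old series, and at 1.62 ± 0.71 in the NudC series, in 4 of 4 pairs above. Chchd2-ps, a copy of a mitochondrial intermembrane-space protein gene, was at -0.75 ± 0.26, -1.28 ± 0.49 and 0.18 ± 0.29 in the same order. Bhmt-ps1, a copy of betaine-homocysteine methyltransferase, was at -0.63 ± 0.25, -0.43 ± 0.15 and 1.30 ± 0.33. It matches Bhmt and Gm5096 equally, at 98.9% identity over 1224 bases. Against Gm5096 it was at -0.24 ± 0.16, -0.12 ± 0.10 and 0.39 ± 0.15. Slc39a1-ps, a copy of a zinc transporter gene, was at -0.73 ± 0.58 in the spike-in series and -0.54 ± 0.46 in the young and old series. Of the 51 pairs measured in all 3 series, 13 were above 0 on average in each and 4 below 0 in each. The signs of 33 differed between the spike-in and NudC series, 26 of them above 0 only in the NudC series.

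**Figure D4:**
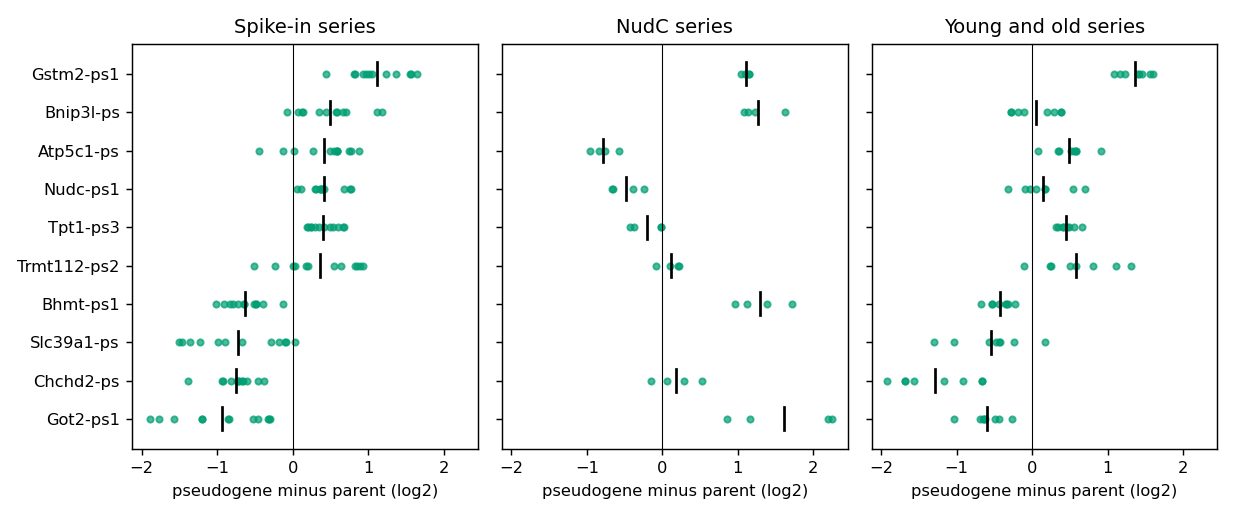
Log2 ratio of the pseudogene minus that of its parent (horizontal axis) for the 6 highest and 4 lowest pairs of the spike-in series, in the 3 series, with a point for each library pair and a line at the mean. Gstm2-ps1 lies above 0 in every pair shown, and Got2-ps1 lies below 0 in the spike-in and young and old series and above 0 in the NudC series.

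Some 14 members lie in an intron of a protein-coding gene on the same strand. In the spike-in series 8 of them could be tested together with the host gene, of which 3 had the opposite sign to the host and 2 lay within 0.5 of it on the log2 scale. Gstp-ps, named after a glutathione S-transferase, was at 0.52 and its host Traf5 at 0.40, and Tmed10-ps, a copy of a vesicle cargo receptor gene, at 0.59 and its host Lyrm4 at 0.44. Ube2n-ps1 (chr5:76232612-76233070, minus strand), identical over its length to Ube2n, a ubiquitin-conjugating enzyme gene, lies in an intron of Clock. It was at 11.9 to 20.4 CPM in spike-in input and 19.6 to 69.5 CPM in enrichment, so that the ranges overlapped at their ends, and was higher by 1.72 ± 0.15 (edgeR, adjusted p = 2.7e-09). Ube2n was at 1.60 ± 0.12 and the host Clock at -1.22 ± 0.22 on the same scale. Itpa-ps1, a copy of a nucleotide pyrophosphatase gene, was at 0.91 and its host Ttc17 at -1.07. Ldha-ps2, a copy of lactate dehydrogenase A, was at -0.48 and its host Ccdc30 at 2.05. Ube2n-ps1 is named by size, and the other four are named after their values were seen, as the 2 closest to the host and the other two of opposite sign.

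In the young and old series, 54 of 174 members had a fitted log2 ratio of at least 1 in young livers and 36 in old livers, compared with 15.8% and 13.5% of all genes, and 13 and 12 had a ratio of -1 or less, compared with 16.8% and 16.1%. All members pass the filter of this table, because the rule is that filter. The members' medians were 0.54 in young and 0.42 in old livers. The ratio was also compared between the ages, in the libraries that the rule used and with a fit over all genes. This difference passed for 0 of 174 members and 0 of 15636 genes (0.0%) in edgeR, and for 0 in DESeq2. At an unadjusted p under 0.05 there were 6 members and 589 genes in edgeR, and 5 members and 576 genes in DESeq2.

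Input levels were compared between old and young livers. Of 174 members, 19 were higher in old livers and 19 lower (10.9% each), against a background of 12.5% and 12.0% of all genes, so the share changed is near that of all genes. With scaling by library size alone 30 were higher and 13 lower, the share higher among all genes that passed moved from 51.0% to 77.6%, and the median of all genes moved from 0.01 to 0.20. Of the 38 members called, 35 were counted in all 16 libraries. The summed hepatocyte markers were at 97430 to 118142 CPM in young and 61258 to 72883 CPM in old input. Those of cholangiocytes were at 7.05 to 7.99 CPM in young and 10.4 to 12.4 CPM in old input, and those of erythroid cells at 28.7 to 69.1 and 61.1 to 196 CPM. The markers of Kupffer cells and leukocytes were at 110 to 182 in young and 108 to 151 CPM in old input. Endothelial markers were at 60.8 to 77.2 and 65.2 to 74.6 CPM, and stellate markers at 115 to 160 and 135 to 151 CPM. The ranges of the last 3 cell types overlapped between the ages, as did those of erythroid cells. The part of these marker levels in the results on age was not tested. In bulk RNA, fewer cells of a type and less RNA per cell cannot be told apart. Serpina4-ps1 (chr12:104080649-104086724, plus strand), named after a serine protease inhibitor gene, fell the most. It was at 15.9, 23.6, 125 and 152 CPM in the 4 young livers and at 0.90, 2.15, 0.85 and 0.60 CPM in the 4 old livers. The ages did not overlap, although the young livers spread widely, and the difference was -6.09 ± 0.77 (edgeR, adjusted p = 3.2e-06).

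Among the 12 members named after Mup genes, which encode the major urinary proteins secreted by liver, 5 were lower and 2 higher in old livers. Of all genes, 12.0% were lower and 12.5% higher. Several of the 12 have the same best match, Mup6, so they are not independent. Mup-ps20 was at 6.35, 12.5, 15.7 and 5.63 CPM in young and 0.45, 0.25, 0.08 and 0.30 CPM in old livers, a difference of -5.13 ± 0.57 (edgeR, adjusted p = 5.9e-07). Mup-ps22 was at 5.02, 6.48, 6.09 and 8.90 CPM in young and 0.64, 1.45, 0.69 and 0.75 CPM in old livers, a difference of -2.87 ± 0.33 (edgeR, adjusted p = 9.4e-07). Mup20, the best match of Mup-ps22 at 90.1% identity, differed by -2.80 ± 0.16. Both members had separate levels at the 2 ages.

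Of the members that were higher in old livers, Mrgprb11-ps, named after a Mas-related G protein-coupled receptor, had 4, 2, 3 and 3 counts in young and 25, 19, 35 and 32 counts in old livers (edgeR, adjusted p = 9.2e-04), and no fold is given at such counts. The ages did not overlap in this member or in Cyp21a2-ps. Cyp21a2-ps, named after the adrenal steroid 21-hydroxylase and overlapping Tnxb on the other strand, had 0, 7, 8 and 2 counts in young and 25, 34, 46 and 31 counts in old livers, a difference of 2.56 ± 0.53 (edgeR, adjusted p = 0.0010). Rbm6-ps1 had 2, 0, 0 and 0 counts in young and 6, 5, 10 and 3 in old livers, at which no fold is given. It was counted in exactly 12 libraries and met the rule for members mainly through the old livers, in which it was then called higher. Among the abundant members, Ftl1-ps1 rose from 722, 823, 742 and 727 CPM in young to 1101, 991, 1034 and 1005 CPM in old livers, by 0.45 ± 0.12 (edgeR, adjusted p = 0.0065), and Ftl1 by 0.53 ± 0.14. Gstm2-ps1 rose by 0.82 ± 0.10, Gstm1 by 0.81 ± 0.09 and Gstm2 by 1.00 ± 0.16. Tpt1-ps3 and Scp2-ps2, a copy of the sterol carrier protein 2 gene, the other two of the 3 most abundant members, were at -0.09 and 0.06 and did not pass. The exons of Scp2-ps2 overlap Gm47162 on the other strand.

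**Figure D5:**
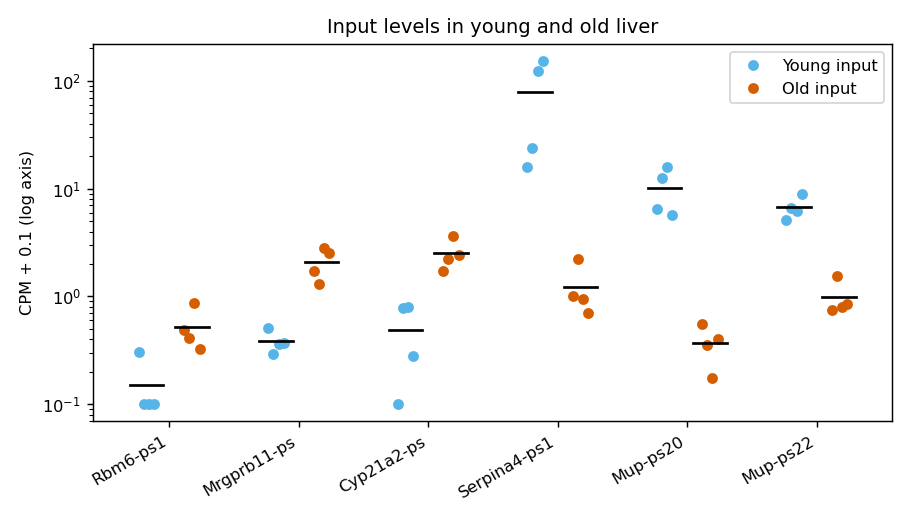
CPM plus 0.1 (vertical log axis) in the 4 young and 4 old input libraries for the 6 pseudogenes with the largest called differences in each direction, with a line at the mean. The levels of Serpina4-ps1, Mup-ps20 and Mup-ps22 are lower in each old liver than in each young liver, and those of the other 3 are higher.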

How the data were processed

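Trimming was by Trim Galore, alignment to GRCm38 by STAR and counting of read pairs over GENCODE genes by featureCounts, all run by the authors, who deposited the raw counts in 3 tables. Of these, 4 columns match no sample and were not used. Gene symbols, types and positions came from GENCODE M21, which lacks 181 gene IDs of the young and old table. Members and lists were chosen with earlier results of these data known. Genes with zeros in more than 25% of a table's libraries were removed, as in the study. edgeR 4.0.16 (TMM scaling, quasi-likelihood test, Benjamini-Hochberg adjustment over all genes) gave the tests, with DESeq2 1.42.0 as an alternative, and was tested on simulated data. Genes named followed a rule of size: the largest called differences in each comparison, the pairs farthest apart, and the most abundant. Exceptions are stated where they are named. Member transcripts were aligned to protein-coding transcripts with blastn 2.17.0. Same-numbered input and enrichment libraries come from 1 reaction. The correlation of their deviations was at least 0.135 in all conditions except the 0% mixture, where the lowest was 0.050. A library's floor of 3 counts was 0.19 to 1.06 CPM.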

Additional observations from a re-analysis of the deposited data

Results flagged for a closer look

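Over 60 groups of 4 library pairs tested for the named pseudogenes, 2 held a library pair far from the other three, and chance alone flags about 1 in 20 such groups. For Mrgprb11-ps, the log2 ratio of enrichment to input was -0.32 in young replicate 4 and 1.89 to 2.33 in the other three, resting on 2 to 4 counts in each young input library. For Mup-ps22, it was -1.87 in old replicate 2, with 23 counts in input and 3 in enrichment, and 0.53 to 0.83 in the other three.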

How the results depend on the processing

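Of the recomputed counts and medians, 159 stayed within the limits set for them and 27 moved. With library size alone, the members at least 2-fold higher and lower were 14 and 18 in the spike-in series, 35 and 25 in young livers and 20 and 27 in old livers, those lower in NudC- and NudC+ were 8 and 4, and those higher in old input were 30. Among all genes that passed at any fold, 23.3%, 17.4% and 18.8% were then higher in the spike-in series, NudC- and NudC+. The main fit gave 47.7%, 59.9% and 55.7%. Of the members that passed at any fold with library size alone, 40 were higher and 41 lower in the spike-in series. In NudC- they were 30 and 8, and in NudC+ 24 and 5. Shares of all genes at 2-fold are not given for library size alone or for the filters below. With a mean of at least 10 counts, 105 members could be tested in the spike-in series, 24 higher and 5 lower, and 34 and 8 passed 2-fold in young livers, from 122, so fewer genes were tested. Without the zero filter, 2 and 1 were lower in NudC- and NudC+. With the replicate block, 50 were higher and 4 lower in NudC+, 3 were lower in NudC-, 1 differed in each direction between NudC+ and NudC-, and no other count of calls moved by over 1.5 times. The NudC counts over all genes rose under it too, as given above. Leaving out 1 NudC replicate gave 0 to 36 higher and 0 to 1 lower in NudC-, and 0 to 27 higher and 0 lower in NudC+. The higher calls in NudC- were 9 without its replicate 1 and 0 without its replicate 2, and those in NudC+ were 0 without either NudC+ replicate, where the lone sample was assumed to vary like the other groups. The median difference from the parent in the young and old series was -0.014 over the 12 pairs with under 98% identity, an alternative chosen after seeing the data. Of the recomputed values of named genes, 298 kept their direction and call, 22 lost the call, 2 gained it and 6 reversed. Under library size alone Slc39a1-ps was at -0.084, Chchd2-ps at -0.39 and Scp2-ps2 at -0.20 in the spike-in series. With only the 1% and 10% mixtures Chchd2-ps was at -0.12 and Got2-ps1 at 0.24, and without replicate 2 Chchd2-ps was at -0.061. The causes were not tested. Rbm6-ps1 lost its call with age without replicate 2, 3 or 4. Depth limits the members with few counts most.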
